A study of Homo sapiens with 18 samples.

Results

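The quantity described is the shift of the nuclear-cytoplasmic balance of newly made RNA by JQ1-VHL in MDA-MB-453 cells: the nuclear effect of the drug (JQ1-VHL minus DMSO) minus its cytoplasmic effect, on log2 values. A positive shift means that new RNA of a gene lay more in the nuclear fraction, relative to the cytoplasmic one, under JQ1-VHL than under DMSO. It was computed for every gene from 12 of the 18 libraries, chosen by their labels: 3 nuclear and 3 cytoplasmic libraries of cells given JQ1-VHL for 3 hours, and 3 nuclear and 3 cytoplasmic libraries of cells given DMSO for 3 hours. All cells, those on DMSO included, had 0.1 mM 4-thiouridine in the medium for the last 60 minutes, and all were opened with 1 mg/ml digitonin to part cytoplasm from nuclei. The 6 total RNA libraries entered the model, where they share in the estimate of the spread, and were read for their own JQ1-VHL effect. The labels name JQ1-VHL as the treatment, while the sample titles call the drug dBET. MDA-MB-453 is an established luminal, apocrine breast cancer line, so all libraries come from 1 line. Of 12755 gene IDs in the table, 10191 passed the filter on low values and were tested.

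JQ1-VHL joins the BET inhibitor JQ1 to a ligand of the VHL ubiquitin ligase, which marks the BET proteins, BRD2 and BRD3 among them, for degradation. BET proteins bind acetylated histones and help RNA polymerase II leave its paused state near promoters. A new transcript is capped, spliced and polyadenylated in the nucleus and is then exported through the nuclear pore, and its level in either fraction depends on synthesis, processing, export and decay. 4-Thiouridine taken up during the label reads as a T-to-C change after iodoacetamide treatment, so that T-to-C reads count RNA made within the label.

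Values are the deposited T-to-C read counts of polyadenylated RNA on the ERCC scale, called units, summed over the intervals of a gene. ERCC RNA was added by mass of RNA, per the labels, so the scale gives new RNA per mass of recovered RNA; fewer cells and less RNA per cell cannot be told apart on it. "Rescaled" units were divided by a further factor per library that sets the typical gene level. The 12 libraries held 1.58 to 6.77 M T-to-C reads (M stands for 1e06), and JQ1-VHL nuclear replicate 3 was the shallowest, with 30.5% of its intervals at 0. DMSO cytoplasmic libraries spread most, holding 8.63, 1.80 and 18.7 M units. Of 8 markers of luminal epithelium 8 were in the table, and of 23 markers of other lineages 4 were (LYZ, COL1A1, TP63 and ALB). The summed level of those 4 was 103 to 239 units in JQ1-VHL nuclei against 350 to 641 in DMSO nuclei, and 545 to 1063 units in JQ1-VHL cytoplasm against 108 to 859 in DMSO cytoplasm, and the part of other cell types in the results was not tested.

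On the ERCC scale new RNA stood lower in the nucleus, relative to the cytoplasm, in the JQ1-VHL libraries on average, by an amount that differed between batches. Summed nuclear new RNA was 1.53, 2.04 and 0.753 M units under JQ1-VHL, against 4.86, 2.55 and 2.33 M under DMSO, and these groups did not overlap. Summed cytoplasmic new RNA was 10.5, 12.1 and 7.59 M units under JQ1-VHL, against 8.63, 1.80 and 18.7 M under DMSO, and the JQ1-VHL values lay inside the DMSO range. The log2 balance of the median gene (nuclear minus cytoplasmic value) was -0.89, -0.64 and -1.48 in JQ1-VHL batches 1, 2 and 3, against 0.72, 2.01 and -1.08 in DMSO batches 1, 2 and 3. It averaged -1.0 ± 0.43 under JQ1-VHL and 0.55 ± 1.55 under DMSO (SD, n = 3 each). DMSO batch 3 was as low as the JQ1-VHL batches, and the groups overlapped.

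The difference in balance of the median gene was -1.55, with an exact two-sided permutation p of 0.3, where 0.1 is the smallest that 3 batches against 3 can give, so that this test cannot pass 0.05. Within batches it was -1.61, -2.65 and -0.40, negative in 3 of 3 batches, and its size differed between them. Weighted by abundance, the log2 ratio of summed nuclear to summed cytoplasmic units was -2.77, -2.57 and -3.33 under JQ1-VHL and -0.83, 0.50 and -3.0 under DMSO (difference -1.78, exact permutation p = 0.3). Rescaling removes most of such a library-wide offset by construction. The balance of the median gene was then 0.54, 0.56 and 0.31 under JQ1-VHL and 0.42, 0.38 and 0.40 under DMSO (difference 0.07, exact permutation p = 0.4).

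**Figure D1:**
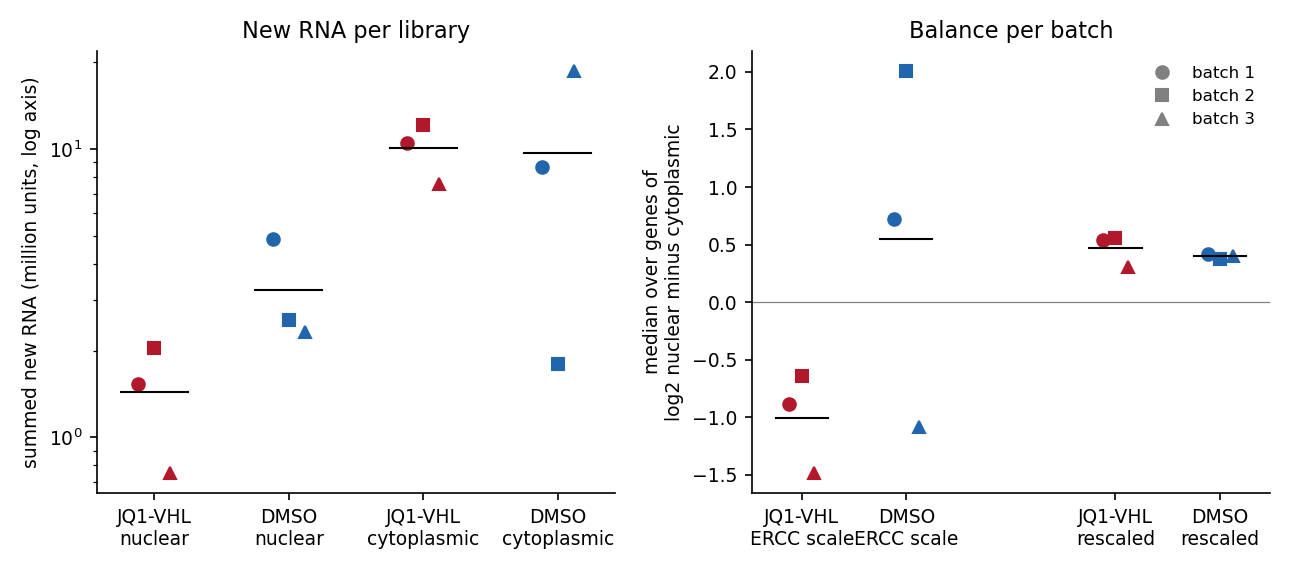
Left, summed new RNA of each library in M ERCC-scaled units on a log axis; right, the median over 10191 genes of the log2 nuclear minus log2 cytoplasmic value in each batch, on the ERCC scale and after rescaling. Points are libraries or batches (shape gives the batch) and bars are means of 3; on the ERCC scale the DMSO batches run between -1.08 and 2.01 and overlap with the JQ1-VHL batches, and after rescaling all 6 balances lie between 0.31 and 0.56.

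Gene by gene on the ERCC scale, the shift had a median of -1.60, and 91.4% of the 10191 genes had a shift below 0. The batch medians were -1.64, -2.78 and -0.43. limma called 0 genes at an adjusted p under 0.05 (0% higher, 0% lower), with 1564 genes at an unadjusted p under 0.05. edgeR's quasi-likelihood test on the recovered reads with the same ERCC factors also called 0, and DESeq2 called 24, all lower. Without DMSO cytoplasmic replicate 3, which held the most cytoplasmic units, limma called 106 genes lower, without DMSO cytoplasmic replicate 1 it called 8, and without DMSO cytoplasmic replicate 2 it called 2. The fit with the batch number as a block called 8 genes lower.

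After rescaling, individual genes shifted both ways around a median of 0.13, in batches 0.15, 0.03 and 0.14. Rescaling moved the median of all genes by 1.73 on the log2 scale, so shifts below are read relative to the typical gene. limma called 148 genes higher in nuclear balance (1.45% of genes tested) and 140 lower (1.37%), 2.83% in all, with 1969 at an unadjusted p under 0.05. Shifts of the called genes ran between 0.89 and 4.89 for the higher ones and between -5.42 and -0.94 for the lower ones. With the batch as a replicate block, the counts were 232 higher and 188 lower, and all 148 and 140 stayed called. A further fit, called the difference fit, took the nuclear minus cytoplasmic value of each treatment and batch and compared 3 with 3. It left out the total libraries and has fewer degrees of freedom. The labels do not say whether the paired libraries came from 1 culture. The difference fit called 25 genes higher and 8 lower, 24 and 7 of them among the main calls. The balances of the 3 JQ1-VHL batches all lay above or all below those of the 3 DMSO batches in 146 of the 148 and 139 of the 140. Of all genes tested, 13.9% and 10.3% lay apart in that direction. The calls were made on these same values, so the separation describes the called genes and is no further test of them. Just inside the threshold was ISG20, with a shift of -4.38 and an adjusted p of 0.0499, and just outside it SCRN2, with -4.69 and 0.0502.

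These counts depend on the spread that the fit assumes and on single libraries. Fitted on the 12 nuclear and cytoplasmic libraries alone, 38 genes were called higher and 20 lower, all of them among the main calls. With these 12 libraries and the replicate block the counts were 49 and 24. Of 78 called genes named in the text or closing section, 20 stayed called with the 12 libraries alone and 18 in the difference fit. With the highest interval of each gene alone 20 stayed called, and with a pseudocount of 0.1 65 did. With edgeR and TMM 64 stayed called, and with library medians as factors 63. Below, adjusted p-values given for calls lost without a library cover only the fits with 1 library left out. Only KLF6, RPS20, CCNL2, H3C12 and SNHG16 stayed called in every alternative in which they were fitted. edgeR with TMM called 108 higher and 237 lower, library medians as factors gave 108 and 195, and DESeq2 gave 600 and 363, so that 31.3%, 35.6% and 62.3% of the calls were higher ones, against 51.4% in the main count. Leaving out JQ1-VHL nuclear replicate 1, 2 or 3 gave 73, 74 or 296 higher and 87, 86 or 183 lower calls. Leaving out DMSO nuclear replicate 1, 2 or 3 gave 67, 50 or 51 higher and 42, 38 or 40 lower calls. Without JQ1-VHL cytoplasmic replicate 1 there were 243 higher calls, without DMSO cytoplasmic replicate 2 there were 98, and without DMSO cytoplasmic replicate 3 there were 225 higher and 252 lower.

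The called genes moved in opposite fractions. Genes with a higher nuclear balance were mostly lower in JQ1-VHL cytoplasm than in DMSO cytoplasm (median effect -1.53) and somewhat higher in JQ1-VHL nuclei (median 0.67). Of these 148, 100 fell in the cytoplasm, where 15.9% of all genes tested fell, and 65 rose in the nucleus, where 18.2% rose. Only 17 passed both tests, 77 passed the cytoplasmic fall alone and 37 the nuclear rise alone, while 11 rose in both fractions and 6 fell in both. Genes with a lower balance were mostly lower in JQ1-VHL nuclei (median -1.30) and somewhat higher in JQ1-VHL cytoplasm (median 0.71). Of these 140, 112 fell in the nucleus, where 12.5% of all genes fell, and 51 rose in the cytoplasm, where 14.8% rose; 23 passed both tests, 87 the nuclear fall alone and 28 the cytoplasmic rise alone. The shift is built from these 2 effects, so the counts describe its make-up and do not test it.

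The total RNA libraries are not part of the contrast, although the spread estimate behind the calls uses them. In total RNA the genes of higher balance went both ways, while among those of lower balance more fell than rose. Among the 148 genes of higher balance, 30 rose in total new RNA and 40 fell, where 12.2% and 18.3% of all genes tested did. Among the 140 of lower balance, 3 rose (2.14%) and 49 fell (35.0%), against the same shares of all genes. On the ERCC scale all 148 lay above the median shift of all genes and 91 of them above 0, and all 140 lay below 0. Rescaling divides all genes of a library by the same factor. Apart from the pseudocount, it therefore moves all shifts by the same amount. The sides on which the called genes lie follow largely from this, so these counts are no further test of the calls.

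**Figure D2:**
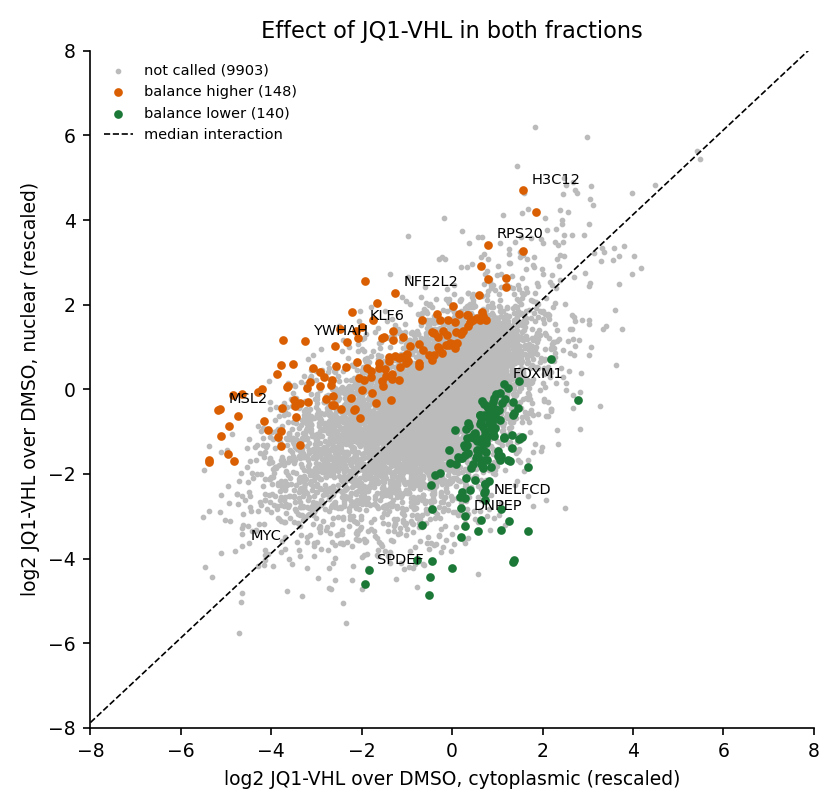
Log2 effect of JQ1-VHL over DMSO in the nuclear fraction (vertical axis) against that in the cytoplasmic fraction (horizontal axis), rescaled values, 1 point per gene. The dashed line marks the median shift of 0.13; the 148 genes of higher balance lie above it, mostly left of 0, and the 140 of lower balance lie below it, mostly under 0 on the vertical axis.

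Among genes with at least 50 units on average, the 12 with the largest positive shifts were PLEKHF2 (4.71), NUDT4 (4.68), MSL2 (4.68), SPTY2D1 (4.52), YWHAH (4.40), TOPORS (4.21), ZNF800 (4.11), ZNF689 (4.05), ZKSCAN7-AS1 (4.00), ELOF1 (3.91), BCL2L11 (3.69) and BANP (3.60). Positions below are those of the gene in GENCODE 29 on GRCh38. In all 12 the 3 JQ1-VHL balances lay above the 3 DMSO balances. A gene was named only if its 3 batches lay on the same side of the median, so the direction in the batches is fixed by the choice here and in the genes of lower balance. Several act on chromatin or transcription: MSL2 is a ubiquitin ligase subunit of the MSL histone acetyltransferase complex, SPTY2D1 a histone chaperone, ELOF1 an RNA polymerase II elongation factor and BANP a DNA-binding transcription factor. NUDT4 cleaves diphosphoinositol polyphosphates, PLEKHF2 is an endosomal protein and TOPORS a SUMO and ubiquitin ligase that binds topoisomerase I. The cytoplasmic side of these shifts rests on few reads. Summed over the 3 JQ1-VHL cytoplasmic libraries the 12 genes held 6 to 54 T-to-C reads, with at least 1 library at 0 in 8 of them, against 74 to 653 in DMSO cytoplasm, so the size of such a shift depends on the pseudocount of 1.

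YWHAH, which encodes the 14-3-3 adaptor protein eta (chromosome 22, 31944461 to 31957603), had 257, 256 and 196 rescaled units in JQ1-VHL nuclei against 119.5, 113 and 87.2 in DMSO nuclei, and 31.4, 45.3 and 3.70 in JQ1-VHL cytoplasm against 141, 170 and 254 in DMSO cytoplasm. Every JQ1-VHL nucleus stood above every DMSO nucleus and every JQ1-VHL cytoplasm below every DMSO cytoplasm, and replicate 3 was the lowest of the JQ1-VHL cytoplasmic libraries. Its shift was 4.40 ± 0.78, adjusted p = 0.00630, positive in 3 of 3 batches. Its nuclear effect was 1.14 (adjusted p = 0.119), its cytoplasmic effect -3.26 (adjusted p = 5.33e-04) and its effect in total RNA -0.08 (adjusted p = 0.924).

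ZNF689, a zinc finger gene (chromosome 16, 30602558 to 30624012), had 119, 163 and 111 rescaled units in JQ1-VHL nuclei against 53.9, 30.6 and 26.7 in DMSO nuclei, and 15.7, 5.66 and 14.8 in JQ1-VHL cytoplasm against 45.7, 70.3 and 52.0 in DMSO cytoplasm. Both fractions were apart, with the nuclear values higher and the cytoplasmic values lower under JQ1-VHL (shift 4.05 ± 0.59, adjusted p = 0.00171). ELOF1 (chromosome 19, 11551147 to 11559236) showed the same pattern, with 257, 281 and 156 rescaled units in JQ1-VHL nuclei against 95.3, 77.0 and 76.9 in DMSO nuclei, and 14.1, 32.6 and 3.70 in JQ1-VHL cytoplasm against 75.8, 68.7 and 76.1 in DMSO cytoplasm (shift 3.91 ± 0.78, adjusted p = 0.0125). BCL2L11, which encodes the pro-apoptotic protein BIM (chromosome 2, 111119378 to 111168447), differed in 1 fraction only, with 153, 149.7 and 162 rescaled units in JQ1-VHL nuclei against 133, 155 and 156 in DMSO nuclei, and 28.3, 5.66 and 3.70 in JQ1-VHL cytoplasm against 104, 123 and 131 in DMSO cytoplasm. Its nuclear groups overlapped and its cytoplasmic groups lay apart (shift 3.69 ± 0.66, adjusted p = 0.00630). SPTY2D1 (chromosome 11, 18606401 to 18634791) likewise had 75.3, 71.3 and 48.2 rescaled units in JQ1-VHL nuclei against 72.2, 70.9 and 64.3 in DMSO nuclei, and 15.7, 4.25 and 0 in JQ1-VHL cytoplasm against 124, 129 and 81.9 in DMSO cytoplasm, which left the nuclear groups overlapping and the cytoplasm low (shift 4.52 ± 0.92, adjusted p = 0.0134).

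SPTY2D1, YWHAH, ZNF689, ELOF1 and BCL2L11 stayed called without any 1 of the 12 libraries. SPTY2D1 lost its call with a pseudocount of 0.1 (adjusted p = 0.0637), with the 12 libraries alone (0.0810) and in the difference fit (0.0532). ZNF689 and BCL2L11 lost theirs in the difference fit (0.0532 each). Of the 12 genes, 4 stayed called with the 12 libraries alone, 3 in the difference fit and 5 with a pseudocount of 0.1. Without 1 library the other 7 lost their call without 2 libraries (NUDT4, MSL2), 3 (BANP), 5 (PLEKHF2), 7 (TOPORS, ZKSCAN7-AS1) or 8 (ZNF800), most often a DMSO nuclear one, with adjusted p-values up to 0.102. Where the strand counted is not stated, reads of overlapping genes cannot be told apart. This touches NUDT4, SPTY2D1, YWHAH, TOPORS, ZNF800, ZNF689, ZKSCAN7-AS1 and BCL2L11, each of which overlaps another annotated gene, and 41 of the 78 called genes named in all.

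Among the largest negative shifts by the same rule were those of 11 genes: FAH (-3.93), AKIP1 (-3.75), MAB21L4 (-3.68), LAD1 (-3.61), CNKSR1 (-3.52), MCIDAS (-3.51), NELFCD (-3.35), DNPEP (-3.29), SLC1A7 (-3.26), INPP5J (-3.15) and GNPAT (-2.99). In all 11 the 3 JQ1-VHL balances lay below the 3 DMSO balances. They include enzymes and signalling proteins of unrelated roles: FAH carries out the last step of tyrosine breakdown, GNPAT the first step of ether lipid synthesis, CNKSR1 is a scaffold in RAS signalling, MCIDAS a regulator of multiciliated cells and SLC1A7 a glutamate transporter. Here the JQ1-VHL nuclear side was thin: the 11 genes held 10 to 141 T-to-C reads over the 3 JQ1-VHL nuclear libraries, against 224 to 3708 over the DMSO nuclear ones. The cytoplasmic side was thin in both treatments, with 50 to 214 reads under JQ1-VHL and 47 to 243 under DMSO.

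DNPEP, an aspartyl aminopeptidase (chromosome 2, 219373527 to 219400022), had the smallest adjusted p of these 23 genes. It had 50.2, 43.2 and 34.0 rescaled units in JQ1-VHL nuclei against 364, 318 and 345 in DMSO nuclei, and 101, 73.6 and 115 in JQ1-VHL cytoplasm against 75.8, 62.1 and 97.3 in DMSO cytoplasm. The nuclear groups lay far apart, the cytoplasmic groups overlapped, and the batches agreed closely, with shifts of -3.24, -3.09 and -3.54 (estimate -3.29 ± 0.40, adjusted p = 4.51e-04). NELFCD, a subunit of the negative elongation factor that holds RNA polymerase II at its pause (chromosome 20, 58981208 to 58995133), had 69.6, 37.2 and 19.9 rescaled units in JQ1-VHL nuclei against 269, 233 and 204 in DMSO nuclei, and 36.2, 66.5 and 88.7 in JQ1-VHL cytoplasm against 35.6, 44.1 and 28.9 in DMSO cytoplasm (shift -3.35 ± 0.63, adjusted p = 0.00867). INPP5J, an inositol polyphosphate 5-phosphatase (chromosome 22, 31122731 to 31134696), had 60.5, 54.2 and 59.6 rescaled units in JQ1-VHL nuclei against 239, 363 and 378 in DMSO nuclei, and 37.7, 34.0 and 75.8 in JQ1-VHL cytoplasm against 23.7, 36.0 and 25 in DMSO cytoplasm (shift -3.15 ± 0.48, adjusted p = 0.00194). In NELFCD and INPP5J the JQ1-VHL nuclei were all below the DMSO nuclei; the cytoplasmic groups overlapped.

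MAB21L4 (chromosome 2, 240886048 to 240896889) had 74.1, 69.3 and 19.9 rescaled units in JQ1-VHL nuclei against 602, 535 and 477 in DMSO nuclei, and 34.6, 36.8 and 49.9 in JQ1-VHL cytoplasm against 42.9, 45.8 and 21.2 in DMSO cytoplasm (shift -3.68 ± 0.66, adjusted p = 0.00639). LAD1, which encodes ladinin (chromosome 1, 201373244 to 201399915), had 2.28, 5.02 and 8.51 rescaled units in JQ1-VHL nuclei against 147, 73.9 and 76.9 in DMSO nuclei, and 44.0, 60.9 and 62.8 in JQ1-VHL cytoplasm against 66.7, 47.4 and 136 in DMSO cytoplasm (shift -3.61 ± 0.69, adjusted p = 0.00967). Both were low in every JQ1-VHL nucleus, with overlapping cytoplasmic groups.

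DNPEP, NELFCD, INPP5J, MAB21L4 and LAD1 stayed called without any 1 library. In the difference fit NELFCD (adjusted p = 0.0889), MAB21L4 (0.0532) and LAD1 (0.0666) lost their calls, and LAD1 also with the 12 libraries alone (0.0515). Of the 11 genes, 4 stayed called with the 12 libraries alone, 2 in the difference fit (DNPEP and INPP5J) and 9 with a pseudocount of 0.1. FAH, AKIP1, LAD1, DNPEP and SLC1A7 overlap another annotated gene. CNKSR1, GNPAT, MCIDAS, AKIP1 and FAH lost their call without any of 2 to 7 of the 12 libraries, DMSO nuclear replicate 1 or 2 among them, and SLC1A7 without 11 of 12, with adjusted p-values up to 0.127 without DMSO nuclear replicate 1. On the ERCC scale, where 0 genes were called, the 12 positive shifts lay between 1.90 and 2.99 and the 11 negative ones between -5.37 and -4.59. No gene met the rule for naming on that scale. When each gene was represented by its highest interval alone, 3 of the 12 higher and 2 of the 11 lower genes were called (DNPEP, adjusted p = 0.0621, was among those lost).

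**Figure D3:**
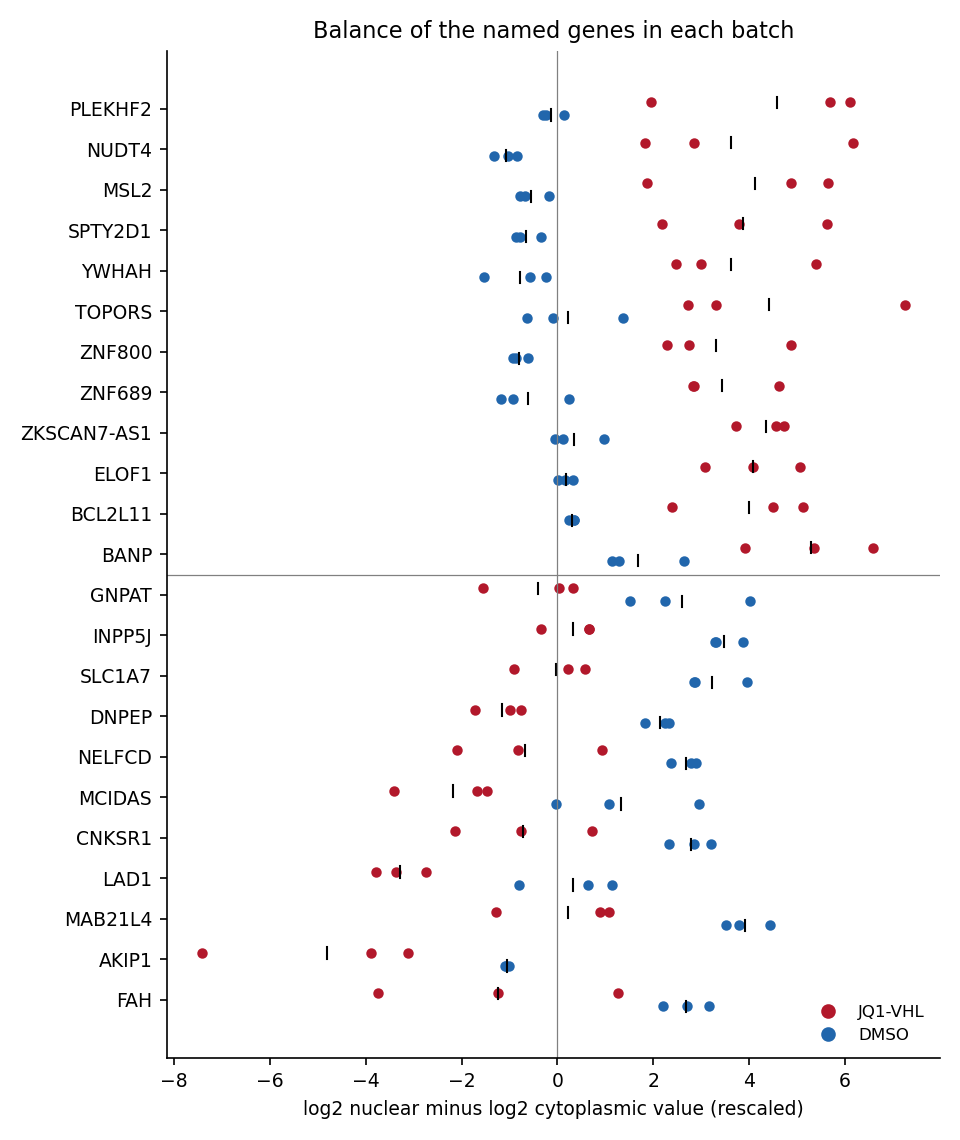
Log2 nuclear minus log2 cytoplasmic value (rescaled) of 23 genes with the largest shifts in each of 3 batches, JQ1-VHL above DMSO in each row, with means as ticks. In every row the 3 JQ1-VHL points lie on 1 side of the 3 DMSO points: right of them in the upper 12 genes, left in the lower 11.

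Promoter sequences are shown for 3 genes of higher balance, YWHAH, KLF6 and BTG1, and for DNPEP, the gene of lower balance with the smallest adjusted p among the named ones, to show what the motifs below look like in place. These sequences are examples and do not stand for the called sets, whose shares are given below. The CCAAT box had the largest difference between the called sets in percentage points among the 9 motifs searched, and YWHAH holds none. They are from RefSeq on GRCh38.p14, 250 bases before to 50 after the annotated start, written 5′ to 3′ on the strand of the gene. Capitals mark the CCAAT box (CCAAT, or ATTGG where it lies on the other strand), the cyclic AMP response element (TGACGTCA) and the TATA box (TATAAA, or TTTATA on the other strand).
YWHAH (chr22:31944285-31944584, plus strand): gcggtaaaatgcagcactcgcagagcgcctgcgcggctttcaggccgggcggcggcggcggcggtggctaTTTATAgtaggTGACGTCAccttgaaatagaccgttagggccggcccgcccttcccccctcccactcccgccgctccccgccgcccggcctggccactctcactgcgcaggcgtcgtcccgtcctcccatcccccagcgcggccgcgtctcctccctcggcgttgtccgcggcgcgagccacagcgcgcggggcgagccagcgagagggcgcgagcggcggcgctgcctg
KLF6 (chr10:3785160-3785459, minus strand): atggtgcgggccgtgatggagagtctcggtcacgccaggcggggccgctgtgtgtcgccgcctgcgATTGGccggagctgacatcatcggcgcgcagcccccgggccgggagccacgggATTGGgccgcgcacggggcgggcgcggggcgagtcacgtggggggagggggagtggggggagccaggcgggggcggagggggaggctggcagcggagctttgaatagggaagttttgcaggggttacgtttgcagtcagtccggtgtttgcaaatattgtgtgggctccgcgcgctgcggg
BTG1 (chr12:92145797-92146096, minus strand): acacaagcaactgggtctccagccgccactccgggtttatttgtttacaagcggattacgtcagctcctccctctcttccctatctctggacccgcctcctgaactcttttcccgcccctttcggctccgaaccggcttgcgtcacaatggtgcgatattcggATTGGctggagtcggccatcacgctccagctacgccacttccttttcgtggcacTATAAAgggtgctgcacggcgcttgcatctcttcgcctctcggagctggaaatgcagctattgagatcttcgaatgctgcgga
DNPEP (chr2:219387863-219388162, minus strand): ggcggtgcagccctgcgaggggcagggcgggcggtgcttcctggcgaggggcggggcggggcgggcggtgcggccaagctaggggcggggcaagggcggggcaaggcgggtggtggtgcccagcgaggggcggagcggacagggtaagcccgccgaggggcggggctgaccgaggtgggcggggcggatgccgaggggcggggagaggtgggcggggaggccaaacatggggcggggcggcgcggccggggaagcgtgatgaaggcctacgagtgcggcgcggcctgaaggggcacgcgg

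KLF6 held the CCAAT box at both marked places, BTG1 a CCAAT box and a TATA box near the start, YWHAH a TATA box and a cyclic AMP response element, and DNPEP none of the 3 motifs. The TATA box letters of YWHAH lie on the other strand, 180 bases before the start. Over the genes with a promoter in the table, CCAAT on either strand was in 58 of 115 promoters of higher balance (50.4%), 33 of 116 of lower balance (28.4%), 37.7% of 7974 genes tested and 35.7% of all 27305 promoters. The cyclic AMP response element was in 6.09%, 3.45%, 3.56% and 1.98% of the same 4 sets, and the TATA box in 8.70%, 4.31%, 4.75% and 11.9%. The GC box (GGGCGG) was in 73.0%, 71.6%, 71.7% and 44.6%, close to equal among the genes measured. The E-box (CACGTG) was in 10.4%, 12.9%, 10.4% and 7.43%, the AP-1 site (TGANTCA) in 5.22%, 6.03%, 3.99% and 7.76%, and the ETS site (CCGGAAG) in 23.5%, 21.6%, 21.1% and 10.7%. These 3 motifs parted the called sets from the genes tested by little. The NRF1 site was in 1.74%, 6.03%, 2.66% and 1.36%, and the core of the antioxidant response element (TGACNNNGC) in 20.9%, 11.2%, 15.2% and 13.6%. A match is a run of letters and not a bound site, and the 9 motifs were not tested.

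Immediate early genes, which are induced fast by growth and stress signals and mostly make short-lived mRNAs, shifted toward the nucleus more than the typical gene. Their median shift over 26 tested members was 0.88 above that of all genes (batches 1.41, 1.65 and 0.65), 23 of 26 lay above the median of all genes, and 5 were called higher (19.2%, against 1.45% of all genes tested) and 0 lower. Their median effect was -1.06 in the nucleus and -1.88 in the cytoplasm. In the cytoplasm 13 fell and 2 rose, and in the nucleus 6 fell and 8 rose. For this and the lists below, of all genes tested 18.2% rose and 12.5% fell in the nucleus, 14.8% rose and 15.9% fell in the cytoplasm, and 1.45% were called higher and 1.37% lower in balance. The called members were KLF6, DUSP2, ZFP36, BTG1 and MCL1.

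KLF6, a zinc finger transcription factor (chromosome 10, 3775996 to 3785281), had 303, 230.1 and 289 rescaled units in JQ1-VHL nuclei against 87.6, 96.4 and 107 in DMSO nuclei, and 36.2, 53.8 and 25.9 in JQ1-VHL cytoplasm against 155, 160.2 and 138 in DMSO cytoplasm. Its nuclear RNA was higher and its cytoplasmic RNA lower in every JQ1-VHL library, the effects in the fractions being 1.48 and -2.0, and total RNA moved by -0.17 (adjusted p = 0.715). The shift was 3.48 ± 0.47, adjusted p = 8.55e-04, with 3.85, 2.80 and 3.79 in the batches, and stayed called in all 27 alternatives fitted. ZFP36, which encodes a protein that hastens decay of AU-rich mRNAs (chromosome 19, 39406813 to 39409412), had 1241, 1246 and 667 rescaled units in JQ1-VHL nuclei against 227, 345 and 436 in DMSO nuclei, and 384, 463 and 181 in JQ1-VHL cytoplasm against 529.7, 549 and 443 in DMSO cytoplasm. The nuclear groups lay apart, the cytoplasmic groups overlapped by 1 library, and the shift was 2.30 ± 0.46, adjusted p = 0.0134. ZFP36 lost its call with the 12 libraries alone (adjusted p = 0.0669) and with the highest interval alone (0.0563).

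DUSP2, a phosphatase of MAP kinases, had a shift of 3.40 ± 0.74, adjusted p = 0.0208, with nuclear and cytoplasmic effects of 1.64 and -1.76. BTG1, an antiproliferative gene, had 2.78 ± 0.69, adjusted p = 0.0373, and MCL1, an anti-apoptotic BCL2 relative, 1.08 ± 0.29, adjusted p = 0.0498. Leaving out DMSO nuclear replicate 3 ended the call of DUSP2 (adjusted p = 0.0622). DUSP2 also lost its call with the 12 libraries alone (0.0773), in the difference fit (0.0819) and with the highest interval alone (0.226). BTG1 lost its call without any of 9 libraries and MCL1 without any of 11. Of these fits both had their highest adjusted p (0.100 and 0.129) without DMSO nuclear replicate 1. FOS and EGR1 did not pass: DMSO nuclear replicate 1 held 6.23 units of FOS and 4.03 of EGR1, far below the other DMSO nuclei, and without it the shift of FOS was -0.85, against 0.77 with it.

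Replication histone genes had the largest median shift of the lists. Their mRNAs normally end in a stem-loop and lack a poly(A) tail, and the libraries were made from polyadenylated RNA. Of 46 listed genes only 7 were in the deposited table, and these 7 were tested. All 7 rose in JQ1-VHL nuclei and 6 in JQ1-VHL cytoplasm, with median effects of 3.99 and 1.57. The other listed genes are absent from the table, so these values describe the 7 and not the family. The median shift was 1.92 above that of all genes (batches 1.87, 1.56 and 1.86; 1.5 to 1.96 under other scalings), and 3 of 7 were called higher. H3C12, which encodes histone H3, had 1929, 2164 and 1395 rescaled units in JQ1-VHL nuclei against 83.9, 69.8 and 54.4 in DMSO nuclei, and 139.9, 119 and 86.9 in JQ1-VHL cytoplasm against 49.3, 44.1 and 24.1 in DMSO cytoplasm. Every JQ1-VHL value exceeded every DMSO value in both fractions, by more in the nucleus (shift 3.13 ± 0.48, adjusted p = 0.00192). H2BC5 and H2BC12, which encode histone H2B, had shifts of 2.33 ± 0.48, adjusted p = 0.0157, and 1.70 ± 0.30, adjusted p = 0.00630, and these 3 calls held without any 1 library. H2BC5 lost its call with the 12 libraries alone (adjusted p = 0.0789) and with the highest interval alone (0.0970). H2BC12 lost its call in the difference fit (adjusted p = 0.0532). Members of the family have near-identical coding sequences, so reads may be split among copies, and H3C12 and H2BC5 overlap other annotated genes.

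Genes of the protein synthesis machinery gave few calls, and its lists lay on both sides of the median shift. Of 63 tested cytosolic ribosomal protein genes, 51 lay above the median shift of all genes, by a median of 0.32 (batches 0.08, 0.45 and 0.67), with 1 called higher (1.59%, near the 1.45% of all genes) and 0 lower. Of the 63, 41 rose in the nucleus and 30 in the cytoplasm, where 18.2% and 14.8% of all genes tested did. The called gene, RPS20, a small-subunit protein, had 726, 769.5 and 638 rescaled units in JQ1-VHL nuclei against 71.8, 68.3 and 56.8 in DMSO nuclei, and 264, 241 and 196 in JQ1-VHL cytoplasm against 144, 116 and 141 in DMSO cytoplasm. Both fractions were apart and higher under JQ1-VHL, and the nucleus gained far more (effects 3.42 and 0.80, shift 2.62 ± 0.29, adjusted p = 2.85e-04), in all 27 alternatives fitted. Translation factors had a median of 0.30 above all genes, with 2 of 30 called higher: EEF2, the elongation factor that moves the ribosome along (1.80 ± 0.43, adjusted p = 0.0314), and EIF1AX, an initiation factor (2.57 ± 0.61, adjusted p = 0.0314). EEF2 and EIF1AX lost their calls without any of 6 and 7 of the 12 libraries (adjusted p up to 0.0868 and 0.0877, without DMSO nuclear replicate 3 and 2). With the highest interval alone they were at adjusted p of 0.161 and 0.459. The 20 aminoacyl-tRNA synthetases, which load amino acids onto tRNAs, went the other way, with a median of -0.63 (batches -0.33, -0.33 and -0.70) and 0 calls by limma (2 members at an unadjusted p under 0.05); 10 of them rose in the cytoplasm and 6 in the nucleus.

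Nuclear speckle and SR protein genes, which act in splicing, had a median of 0.39 above all genes (batches 0.08, 0.52 and 0.39), with 27 of 36 members above and 3 called higher. CCNL2, a cyclin of nuclear speckles known for retained introns (chromosome 1, 1385711 to 1399328), had 3769, 3854 and 5774 rescaled units in JQ1-VHL nuclei against 1598, 1994 and 2045 in DMSO nuclei, and 263, 401 and 469 in JQ1-VHL cytoplasm against 701, 677 and 999 in DMSO cytoplasm. The nuclear values were higher and the cytoplasmic values lower in every JQ1-VHL library (effects 1.23 and -1.09, shift 2.31 ± 0.33, adjusted p = 0.00170), and the call held in all 27 alternatives fitted. RBM39 had a shift of 1.31 ± 0.28, adjusted p = 0.0181, and RBM25 of 0.92 ± 0.23, adjusted p = 0.0387; both encode splicing factors. RBM39 lost its call without DMSO nuclear replicate 1 (adjusted p = 0.0522) and RBM25 without any of 8 libraries (up to 0.0949 without DMSO nuclear replicate 2). CCNL2 and RBM39 are also the 2 called of 19 detained-intron genes, whose median was 0.12. The core spliceosome had 2 of 39 called higher, SNRPA (2.30) and BUD31 (2.06), and 1 lower, SNRPE (-2.40). Its median was -0.11 (batches 0.06, 0.02 and -0.06). SNRPA and SNRPE are snRNP proteins. The calls of SNRPA, BUD31 and SNRPE were lost without 8, 5 and 4 libraries in turn, with adjusted p up to 0.108. With the highest interval alone SNRPA was at an adjusted p of 0.499 and BUD31 at 0.509. In the difference fit SNRPE was at 0.165. Among hnRNP genes HNRNPF was called (1.63 ± 0.26, adjusted p = 0.00298), 1 of 23, with a list median of 0.00 that was negative under 4 of 5 other scalings. HNRNPF lost its call in the difference fit (adjusted p = 0.0547).

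The genes whose products carry RNA and proteins through the nuclear pore did not shift as a group. Of 32 mRNA export genes 0 were called higher and 1 lower, CHTOP, an export adaptor of the TREX complex (-1.14 ± 0.30, adjusted p = 0.0467), whose cytoplasmic effect was 1.06 and whose nuclear effect was -0.08. NXF1, the main mRNA export receptor, had a shift of 0.80 (adjusted p = 0.0755) and ALYREF, another TREX adaptor, -0.34 (adjusted p = 0.737). The list's median was -0.07 relative to all genes. Among 48 nucleoporins and transport receptors the median was -0.09 and 2 were called higher. NUP153, a protein of the pore's nuclear basket (chromosome 6, 17615035 to 17706834), had 679.9, 607 and 865 rescaled units in JQ1-VHL nuclei against 284, 256 and 280.5 in DMSO nuclei, and 118, 178 and 72.1 in JQ1-VHL cytoplasm against 400, 317 and 186 in DMSO cytoplasm. It was higher in every JQ1-VHL nucleus and lower in every JQ1-VHL cytoplasm (shift 2.68 ± 0.41, adjusted p = 0.00205). The call held without any 1 library, but not in the difference fit (adjusted p = 0.0532) or with the highest interval alone (0.0951). KPNA4, an importin alpha, had 1.01 ± 0.26, adjusted p = 0.0469. KPNA4 and CHTOP each lost the call without any of 8 libraries, with adjusted p up to 0.123.

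The transcription machinery gave single calls in both directions. Of 26 P-TEFb, pausing and elongation genes 1 was called, NELFCD, lower; NELFE, another subunit of the same complex, had -3.97 ± 1.31 (adjusted p = 0.106), with JQ1-VHL nuclear replicate 3 at 0, and CDK9, the kinase of P-TEFb, had 1.98 ± 0.81 (adjusted p = 0.187). RNA polymerase II and general factors had 1 of 32 higher, GTF2A1 of TFIIA (2.80), and 1 lower, GTF2H1 of TFIIH (-1.16). Mediator and Integrator had 1 of 39 higher, MED17 (1.99), and 1 lower, MED6 (-1.72). The medians of these lists relative to all genes were 0.01, -0.20 and 0.04, and the first and last changed sign under 4 of 5 other scalings. GTF2A1, GTF2H1, MED17 and MED6 lost their calls without 6, 5, 8 and 2 of the 12 libraries, with adjusted p up to 0.117. With the highest interval alone they were at adjusted p of 0.693, 0.824, 0.265 and 0.0531. Of 29 nuclear RNA decay and 3′ processing genes, whose median was -0.13, EXOSC8 of the RNA exosome was called lower (-1.66). It lost its call without any of 6 libraries (adjusted p up to 0.0987). With the highest interval alone it was at an adjusted p of 0.878.

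BET genes had shifts of 1.15 ± 0.56 in BRD2 (adjusted p = 0.275) and 2.27 ± 0.75 in BRD3 (adjusted p = 0.106), neither past the threshold. In rescaled units, BRD3 had 7.86, 8.50 and 27.7 in JQ1-VHL cytoplasm against 100.5, 159 and 68.4 in DMSO cytoplasm, with replicate 3 the highest of the JQ1-VHL cytoplasmic values. MYC, which BET inhibitors are known to lower, fell in both fractions: it had 10.3, 12.1 and 14.2 rescaled units in JQ1-VHL nuclei against 81.0, 239.6 and 249 in DMSO nuclei, and 14.1, 5.66 and 3.70 in JQ1-VHL cytoplasm against 215, 139 and 244 in DMSO cytoplasm. Both fractions lay apart, with effects of -3.70 and -4.64, and the shift of 0.94 ± 0.70 did not pass (adjusted p = 0.491). The 26 MYC targets in ribosome biogenesis had a median of -0.02 relative to all genes, positive under 2 of 5 other scalings, and 0 calls by limma (7 at an unadjusted p under 0.05).

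Genes of luminal and apocrine identity gave calls both ways among 28 tested, 2 higher and 2 lower. Their median was 0.34 (batches 0.15, -0.22 and 0.13). XBP1, a transcription factor of the unfolded protein response, had 1324, 1426 and 1557 rescaled units in JQ1-VHL nuclei against 2657, 3633 and 4721 in DMSO nuclei, and 520.4, 499.8 and 142 in JQ1-VHL cytoplasm against 3046, 2862 and 4709.8 in DMSO cytoplasm. It was lower in every JQ1-VHL library of both fractions, by less in the nucleus (effects -1.32 and -3.37, shift 2.05 ± 0.51, adjusted p = 0.0367). SPDEF, an ETS factor of luminal cells, had 77.6, 89.4 and 45.4 rescaled units in JQ1-VHL nuclei against 1374, 1403 and 1223 in DMSO nuclei, and 33.0, 24.1 and 83.2 in JQ1-VHL cytoplasm against 179, 211 and 84.8 in DMSO cytoplasm. Its nuclear groups lay far apart and its cytoplasmic groups nearly met (effects -4.27 and -1.84, shift -2.43 ± 0.63, adjusted p = 0.0452). The keratin genes went opposite ways, KRT18 with 1.26 ± 0.32, adjusted p = 0.0410 and KRT7 with -2.54 ± 0.58, adjusted p = 0.0251. XBP1, KRT18, KRT7 and SPDEF lost their calls without 7, 10, 5 and 9 of the 12 libraries, with adjusted p up to 0.112. With edgeR and TMM XBP1 (adjusted p = 0.0774) and KRT18 (0.0784) lost theirs too.

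Other luminal regulators fell in both fractions with no shift past the threshold. FOXA1, a pioneer factor, had effects of -3.36 and -4.37 in nucleus and cytoplasm (shift 1.01 ± 0.95, adjusted p = 0.598), GATA3 of -1.01 and -1.62 (0.61 ± 0.25, adjusted p = 0.189) and TFAP2B, an AP-2 factor, of -3.63 and -2.48 (-1.15 ± 0.51, adjusted p = 0.217). ERBB2, a receptor tyrosine kinase, had effects of 1.19 and 0.87 (0.32 ± 0.47, adjusted p = 0.752). PIP, an apocrine secretory gene, had 0 reads in all 6 JQ1-VHL libraries of the fractions, so no shift is given for it.

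Lists of cytoskeleton, glycolysis, chaperone and lipid synthesis genes held 5 calls in all. ACTB, beta-actin, had 21726, 17834 and 25152 rescaled units in JQ1-VHL nuclei against 6073, 7604 and 6861 in DMSO nuclei, and 116260, 115160 and 122180 in JQ1-VHL cytoplasm against 62943, 70153 and 76755 in DMSO cytoplasm. Both fractions lay apart (effects 1.65 and 0.76, shift 0.89 ± 0.23, adjusted p = 0.0455), and ACTB was the 1 call among 25 actin cytoskeleton genes. GAPDH had effects of 1.53 and 1.07 (shift 0.46 ± 0.35, adjusted p = 0.499), and 0 of 16 glycolysis genes were called by limma (1 at an unadjusted p under 0.05). Among heat shock and chaperone genes 2 of 19 were called higher, the chaperonin genes HSPD1 (1.05 ± 0.26, adjusted p = 0.0400) and TCP1 (1.04 ± 0.22, adjusted p = 0.0192), with a list median of 0.49 (batches 0.41, 0.32 and 0.53) and 16 of 19 above all genes. Cholesterol and fatty acid synthesis had 2 of 23 higher, EBP, a sterol isomerase (1.71 ± 0.42, adjusted p = 0.0356), and INSIG1, a brake on sterol synthesis (1.57 ± 0.39, adjusted p = 0.0387). ACTB, HSPD1, EBP, INSIG1 and TCP1 lost their calls without 9, 8, 8, 8 and 2 of the 12 libraries, with adjusted p up to 0.107. All 5 also lost them in limma with library medians as factors (adjusted p up to 0.181, in ACTB). With edgeR and TMM all but EBP did (up to 0.129, in ACTB), so these calls depend on the scaling.

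**Figure D4:**
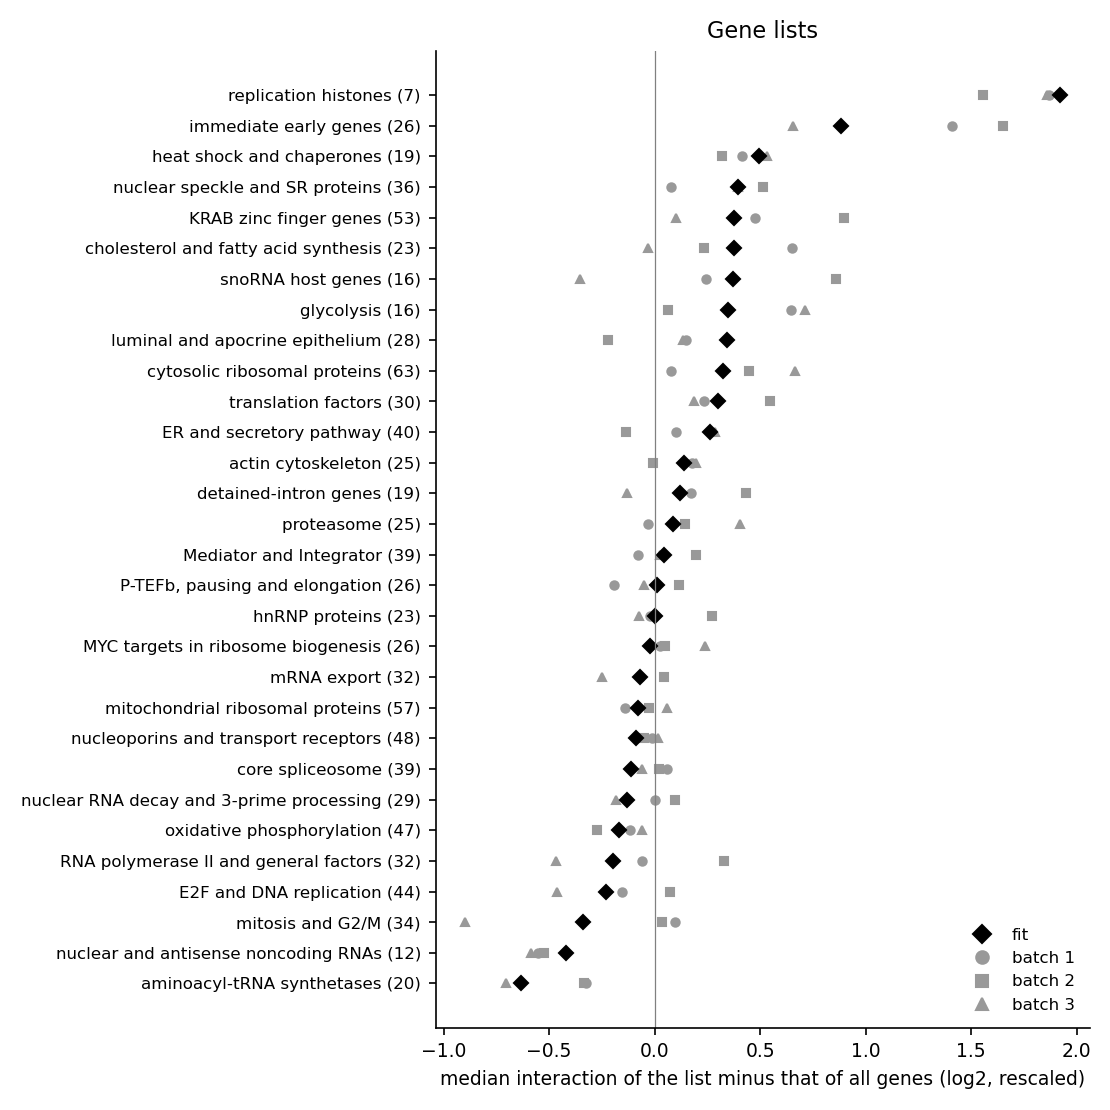
Median shift of each gene list minus the median of all genes (log2, rescaled), with the number of tested members in brackets; diamonds are the fit and grey symbols the 3 batches. Replication histones (1.92) and immediate early genes (0.88) lie right of 0 in all 3 batches and aminoacyl-tRNA synthetases (-0.63) left of 0 in all 3.

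In the remaining lists few genes were called. KRAB zinc finger genes, a large family of DNA-binding repressors, had a median of 0.38 and 3 of 53 called higher: ZNF100 (1.70), ZNF141 (1.68) and ZNF320 (1.63). Each lost its call without any of 8 to 10 libraries (adjusted p up to 0.130). With the highest interval alone they were at adjusted p of 0.482, 0.0808 and 0.722. Of the 53 genes, 23 fell in the cytoplasm. Among 16 snoRNA host genes, whose introns hold snoRNAs, the median was 0.37 (batches 0.24, 0.86 and -0.35). SNHG16 was called (2.88 ± 0.49, adjusted p = 0.00421), with effects of 0.23 in the nucleus and -2.65 in the cytoplasm. It stayed called in all 26 alternatives fitted. Of 57 mitochondrial ribosomal protein genes 0 were called higher and 3 lower, MRPL14 (-2.66), MRPL9 (-1.59) and MRPS15 (-1.10), which were lost without 5, 8 and 7 libraries (adjusted p up to 0.114); the median was -0.08. limma called 0 genes in the lists of oxidative phosphorylation (47 genes, median -0.17, which turned positive under 2 of 5 other scalings), the proteasome (25, 0.09), the ER and secretory pathway (40, 0.26), E2F and DNA replication (44, -0.23), mitosis and G2/M (34, -0.34) and nuclear and antisense noncoding RNAs (12, -0.42). At an unadjusted p under 0.05 these held 7, 8, 7, 7, 2 and 2 genes. The batches of E2F and DNA replication were -0.16, 0.07 and -0.46, and those of mitosis and G2/M 0.09, 0.03 and -0.90. Of the 32 lists, 9 lay above all genes in all 3 batches and 3 below, and the rest differed in sign between batches. In 30 lists with at least 3 tested genes, the BET family left out, the median took the opposite sign under none of the 5 other scalings in 25. The mitochondrial ribosomal proteins, at 0 under the ERCC scale and library medians, were counted among these 25. Those 2 scalings gave nearly the same list medians relative to all genes, so the 5 are not separate checks.

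Transcript structure moved with the shift across genes, by small amounts. Genes with a single interval had a median shift 0.30 above all genes (565 genes, batches 0.34, 0.52 and 0.20), or 0.56 on the ERCC scale. Of them 1.06% were called higher, against 1.45% of all genes tested. With 2 to 4, 5 to 9, 10 to 19 and 20 or more intervals the medians were 0.06, -0.02, -0.07 and 0.04. By 3′ UTR length, in 4 groups of equal size, the medians relative to all genes were -0.15, -0.03, 0.05 and 0.10 from the shortest to the longest, and by GC content of the 3′ UTR 0.06, 0.06, -0.02 and -0.16 from the lowest to the highest. By gene length they were -0.13, -0.03, 0.01 and 0.09, the first being -0.06 on the ERCC scale. The order by 3′ UTR length was the same in the 3 batches. That by GC content was not, with 0.006, 0.010, 0.049 and -0.115 in batch 1. In the called sets the median 3′ UTR was 1503 bases long in genes of higher balance, 740 in genes of lower balance and 1323 in all tested, with a GC content of 38.9%, 49.0% and 42.1%. The AU-rich motif TATTTAT was in the 3′ UTR of 42.4% of genes of higher balance, 24.3% of lower balance and 35.5% of all 9280 genes with one. Across genes the Spearman correlation of the shift with 3′ UTR GC content was -0.11, a weak relation given as a description, since genes of a library share its depth and base composition. 3′ UTR GC content and length are themselves correlated (-0.14), and were not tested jointly.

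**Figure D5:**
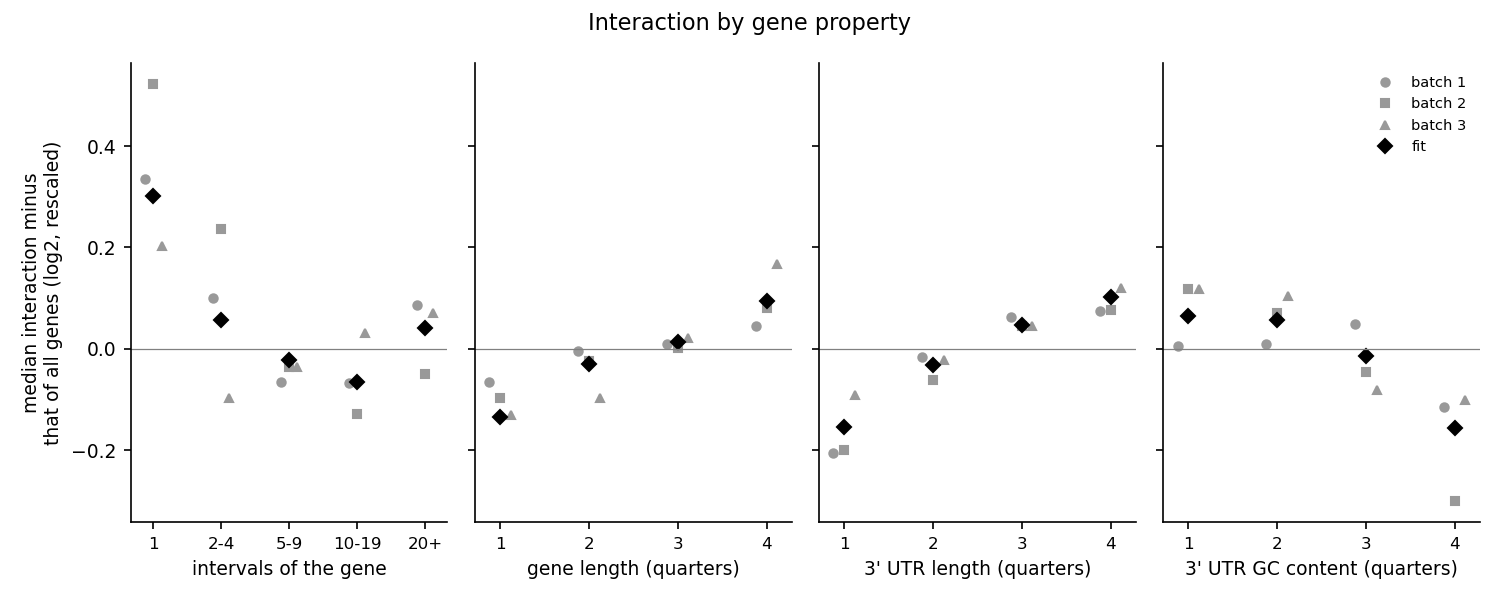
Median shift minus that of all genes (log2, rescaled) by the number of intervals of a gene and by gene length, 3′ UTR length and 3′ UTR GC content, 1 the lowest and 4 the highest; diamonds are the fit and grey symbols the 3 batches. The shift runs from -0.15 to 0.10 over the 4 groups of 3′ UTR length and from 0.06 to -0.16 over those of GC content.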

How the data were processed

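Newly made polyadenylated RNA was read as 150 bp pairs. The deposited table holds signal: T-to-C read counts that the authors divided by an ERCC factor per library, per its name, for 98665 numbered intervals of 12755 gene IDs. Per the submitters' processing notes, DESeq2, HTSeq, HISAT2, bcl2fastq and Trimmomatic 0.39 were used, with dm3 and GRCh37/hg19 as builds; the notes give no roles, and the strand and the counting rule are not given in the sources used here. Intervals were summed per gene, so a fragment in several intervals counts several times. All values (100%) were whole multiples of 1 read, to within 0.01 of it, and gave back the reads; on these edgeR with TMM called 108 genes higher and 237 lower, and 0 with the ERCC factors. Every column was mapped to a sample.

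Genes with a mean of at least 10 units over 18 libraries were tested (10191, holding 99.8% of the value) with limma 3.58.1 (trend, robust eBayes) on log2(value + 1), 1 mean for each of 6 groups of 3, two-sided, Benjamini-Hochberg, adjusted p under 0.05. Log2 shifts are estimate ± SE on that scale, which understates changes of low genes. Rescaled values were divided by median-of-ratios factors (0.168 to 3.21). On the ERCC scale the fit took the prior degrees of freedom as infinite for 10059 genes, although the genes of a library move together. Alternatives used edgeR 4.0.16, DESeq2 1.42.0, other factors, filters, pseudocounts, blocks and left-out libraries. The fits were tested on simulated data. Gene properties were taken from GENCODE 29 (12546 IDs matched).

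Named were the 12 highest and 12 lowest called shifts with a mean of at least 50 units and the same side of the median in 3 batches, up to 3 called members per list and direction, and fixed genes; ZFP36 and the genes under "Other observations" were added after their values were seen. 3 genes that the rule names are not reported here. The members and the 32 lists were chosen with earlier results of these data known. The labels give a batch number equal to the replicate number, which was used to pair the libraries. Deviations of JQ1-VHL and DMSO libraries correlated at 0.27, -0.14 and 0.26 in nuclei and 0.08, -0.02 and 0.06 in cytoplasm. Those of the nuclear and cytoplasmic libraries that a balance joins correlated at 0.09, 0.09 and 0.16 under JQ1-VHL. Under DMSO they correlated at 0.08, -0.004 and 0.005, so the pairing by batch was weak. Whether the replicates were grown as separate cultures is not in the labels, so the p-values cover no more than the spread among these libraries. Without molecular identifiers, reads are not independent molecules.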

Additional observations from a re-analysis of the deposited data

Results flagged for a closer look

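Each result here is a gene, or a count of genes, whose JQ1-VHL effect differed between the nucleus and the cytoplasm by a test of the difference itself (the interaction in limma, rescaled values, two-sided, Benjamini-Hochberg over 10191 genes). The counts were 148 genes of higher and 140 of lower nuclear balance. The named genes of higher balance had log2 shifts of 4.71 (PLEKHF2), 4.68 (NUDT4), 4.68 (MSL2), 4.52 (SPTY2D1), 4.40 (YWHAH), 4.21 (TOPORS), 4.11 (ZNF800), 4.05 (ZNF689), 4.00 (ZKSCAN7-AS1), 3.91 (ELOF1), 3.69 (BCL2L11) and 3.60 (BANP). Those of lower balance had -3.93 (FAH), -3.75 (AKIP1), -3.68 (MAB21L4), -3.61 (LAD1), -3.52 (CNKSR1), -3.51 (MCIDAS), -3.35 (NELFCD), -3.29 (DNPEP), -3.26 (SLC1A7), -3.15 (INPP5J) and -2.99 (GNPAT). Lying on the same side of the median in 3 of 3 batches was part of the rule that named them.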

How the results depend on the processing

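After rescaling, 148 genes were higher and 140 lower. The counts were 262 and 260 with a pseudocount of 10, and 38 and 20 with the 12 libraries alone. With the batch number as a replicate block 232 were higher, and with that block and the 12 libraries alone the counts were 49 and 24. They were 25 and 8 in the difference fit, and 33 and 54 with the highest interval alone. Genes that overlap no other gene gave 67 and 59, edgeR with TMM 237 lower, and DESeq2 600 and 363. Leaving out 1 library gave 50 to 296 higher and 38 to 252 lower. The median shift was -0.0191 with the highest interval, -0.00166 in edgeR, 0.21 in DESeq2, -0.0137 with library medians, and 0.0523 to 0.152 without 1 library. On the ERCC scale 0 genes were lower in the main fit, 8 with the replicate block, 28 in the difference fit and 6 without robust fitting. With the highest interval 3 were lower, in DESeq2 24 and without 1 library 0 to 106. In every setting fitted 0 were higher. Its median lay between -2.17 and -0.71, the balance of the median gene between -2.13 and -1.0 and the summed balance between -2.51 and -1.14 without 1 library. On the ERCC scale, single-interval genes were 0.56 above all genes, and the groups 1 and 3 of 4 by gene length and 3 by 3′ UTR length were at -0.0599, -0.00228 and 0.0334. Among the named genes, directions reversed only in ones that were not called. Without 1 library, FOXA1 ran from -0.13 to 1.79, ERBB2 from -0.14 to 0.62, ALYREF from -0.62 to 0.14, FOS from -0.85 to 1.67 and EGR1 from -2.08 to 0.33. FOS was at -0.66 in edgeR and -0.43 in DESeq2. The causes were not tested. The pseudocount of 0.1, other filters and upper-quartile factors left both counts within 1.5 times, although with that pseudocount 7 of the 12 higher genes of largest shift (PLEKHF2, NUDT4, SPTY2D1, TOPORS, ZNF800, ZKSCAN7-AS1 and BANP) and 2 of the 11 lower ones (AKIP1 and SLC1A7) lost their calls. Few reads in JQ1-VHL cytoplasm and nuclei limit the size of the largest shifts. In simulated data with the real depths 4.55%, 49.3% and 86.6% of genes shifted by 1, 2 and 3 on the log2 scale were recovered after rescaling. On the ERCC scale 0%, 4.48% and 31.3% were. The shifted genes had a mean of at least 50 units and changed in JQ1-VHL nuclei only. No other gene had a drug effect and genes were drawn independently, so these rates need not hold in the real data.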

Other observations

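The genes in this part were chosen after their values were seen, from among the called ones, for their known roles, so their values describe and support nothing further. Several further transcription factor genes had a higher nuclear balance under JQ1-VHL. NFE2L2, the master regulator of the antioxidant response, had 908, 1082 and 598 rescaled units in JQ1-VHL nuclei against 181, 162 and 172 in DMSO nuclei, and 113, 52.4 and 70.2 in JQ1-VHL cytoplasm against 237, 222 and 111 in DMSO cytoplasm. The nuclear groups lay apart, higher under JQ1-VHL, and the cytoplasmic groups, mostly lower under JQ1-VHL, overlapped by 1 library (shift 3.54 ± 0.47, adjusted p = 6.60e-04), and the gene overlaps several other annotated genes. HES1, a Notch target, had a shift of 2.75 ± 0.54, adjusted p = 0.0107, KLF3, a repressor of the Krüppel-like family, of 3.12 ± 0.41, adjusted p = 6.60e-04, and NR3C1, the glucocorticoid receptor, of 2.43 ± 0.56, adjusted p = 0.0260. CPEB4, which binds the 3′ UTR of mRNAs and controls their translation, had 121, 103 and 142 rescaled units in JQ1-VHL nuclei against 136, 179 and 183 in DMSO nuclei, and 18.9, 26.9 and 14.8 in JQ1-VHL cytoplasm against 281, 324 and 233 in DMSO cytoplasm. Its nuclear groups overlapped and its cytoplasmic groups lay far apart (shift 3.31 ± 0.41, adjusted p = 4.51e-04). ATF4, the factor of the integrated stress response, had 1.84 ± 0.44, adjusted p = 0.0314 and ID2, an inhibitor of helix-loop-helix factors, 1.92 ± 0.50, adjusted p = 0.0456. NFE2L2, HES1, KLF3 and CPEB4 stayed called without any 1 library, but not with the highest interval of each gene alone (adjusted p between 0.0569 and 0.256). HES1 also lost its call in the difference fit (0.0515). NR3C1, ATF4 and ID2 lost their call without 5, 7 and 8 of the 12 libraries (adjusted p up to 0.118). With the highest interval alone they were at adjusted p of 0.345, 0.0985 and 0.143.

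Among genes of lower balance, the histone deacetylase genes HDAC1 and HDAC3 had more new RNA in the cytoplasm under JQ1-VHL. HDAC1 had 400.4, 376 and 318 rescaled units in JQ1-VHL nuclei against 489, 461 and 423 in DMSO nuclei, and 624, 659.8 and 900.1 in JQ1-VHL cytoplasm against 342, 356 and 310.2 in DMSO cytoplasm. The cytoplasmic groups lay apart, by an effect of 1.09, and so did the nuclear groups, by -0.33, which did not pass (shift -1.43 ± 0.25, adjusted p = 0.00610). HDAC3 had a shift of -1.64 ± 0.32, adjusted p = 0.0117, with a cytoplasmic effect of 0.98. FOXM1, a factor of the G2/M genes, had a shift of -1.04 ± 0.27, adjusted p = 0.0460 with a cytoplasmic effect of 1.15 and a nuclear effect of 0.11, TIMELESS, a replication fork protein, of -2.66 ± 0.58, adjusted p = 0.0199, MAPK3, the kinase ERK1, of -2.15 ± 0.48, adjusted p = 0.0233, and FGFR4, a growth factor receptor, of -1.38 ± 0.28, adjusted p = 0.0143. HDAC1 and HDAC3 stayed called without any 1 library, but lost their calls with the 12 libraries alone, with or without the replicate block. They also lost them in the difference fit and with the highest interval (adjusted p up to 0.387 and 0.139). FGFR4, TIMELESS, MAPK3 and FOXM1 lost their call without 1, 2, 6 and 7 libraries (adjusted p up to 0.124).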
